A study of Homo sapiens with 6 samples.

Results

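TPT1, RACK1 (also named GNB2L1), NACA, BTF3 and NAP1L1 encode proteins that are not ribosomal proteins, yet their mRNAs are counted among the terminal oligopyrimidine (TOP) mRNAs. Their recovery with LARP1 was measured in HCT116 cells, in the fraction of a sucrose gradient that holds free 40S subunits. The genes were taken by Ensembl ID: ENSG00000133112 (TPT1), ENSG00000204628 (RACK1), ENSG00000196531 (NACA), ENSG00000145741 (BTF3) and ENSG00000187109 (NAP1L1). All 5 were found among the 60554 gene IDs of each count table, and all 5 passed the filter on low counts, which left 10788 genes for the tests.

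The series used RNA immunoprecipitation and sequencing (RIP-seq), in which an antibody recovers a protein together with the RNA bound to it. HCT116 cells are an established human line from a colorectal carcinoma, of epithelial origin, and no genotype or drug treatment is given for any library. The libraries held RNA bound by an antibody to LARP1 (LARP1 RIP, n = 2), RNA bound by IgG of normal rabbit serum, which measures background (IgG RIP, n = 2), and the RNA of the fraction before any antibody (Input, n = 2). The series text calls the material the free 40S fraction of a sucrose gradient, whereas the sample descriptions call it a 40S monosome fraction. The labels describe the libraries of a group as biological replicates, without saying from which cultures they came.

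A TOP mRNA begins with a cytosine directly after the cap, followed by an unbroken stretch of pyrimidines. The class holds the mRNAs of the ribosomal proteins and of many other proteins of the translation machinery, and its translation is switched on and off together by mTOR signalling. LARP1 is an RNA-binding protein that can hold the cap and the adjoining pyrimidines of such mRNAs. The small, or 40S, ribosomal subunit is the one that joins an mRNA first during initiation.

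The RefSeq start of each gene (GRCh38.p14) carried this feature. The 30 bases around each start are printed to show the pyrimidine stretches, 5′ to 3′ on the coding strand, with 10 bases before the start and 20 from it. Capitals mark the unbroken pyrimidine run that begins with the first transcribed base.
TPT1: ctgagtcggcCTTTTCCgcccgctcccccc
RACK1: gcttttctctCTCTCTTTCactgcaaggcg
NACA: ctcgctcggtCTTTCTgccgccatcttggt
BTF3: cttccggcctCCCTTTagctgccatcttgc
NAP1L1: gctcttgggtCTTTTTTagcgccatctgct

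The windows lie at chr13:45341164-45341193 for TPT1, chr5:181243887-181243916 for RACK1, chr12:56725280-56725309 for NACA, chr5:73498432-73498461 for BTF3 and chr12:76084666-76084695 for NAP1L1. BTF3 is on the plus strand and the others are on the minus strand. The last 20 bases of each window are the beginning of the 5′ untranslated region in the first exon. All 5 genes have C as the first transcribed base. The run from that base is 7 pyrimidines long in TPT1, 9 in RACK1, 6 in NACA, 6 in BTF3 and 7 in NAP1L1. In RACK1 it continues a run with 9 pyrimidines before the annotated start, in BTF3 with 3, and in the others with 1. TPT1 and NACA have G after the run, and the other genes have A.

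A C at the annotated start followed by at least 4 pyrimidines was searched on the coding strand only, and any longer run counts once. It is present at 5 of 5 of these starts and at 4.07% of the 35114 RefSeq starts searched (4.54% of the 22197 protein-coding ones). With the C allowed anywhere within 10 bases of the start, 33.5% of all starts hold it. A tract of C and at least 7 pyrimidines in that window is present in 3 of the 5 genes, TPT1, RACK1 and BTF3, and at 9.17% of all starts. At the annotated start itself, a C with at least 7 pyrimidines after it is present in 1 of the 5, RACK1, and at 1.45% of all starts. These genes are known as TOP mRNAs, so the match describes the members and is not an independent result. The annotated start need not be the one used in these cells.

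All 5 mRNAs were higher in the LARP1 RIP than in the IgG RIP and than in Input, while none passed the test between the IgG RIP and Input. The fold over the IgG RIP was 17.2 for TPT1, 15.7 for BTF3, 15.3 for RACK1, 10.3 for NACA and 4.73 for NAP1L1. The fold over Input was 10.4 for RACK1, 9.16 for BTF3, 7.62 for NACA, 5.96 for TPT1 and 4.22 for NAP1L1. Both comparisons share the LARP1 RIP libraries, so they are not separate evidence. Against the IgG RIP, 5 of 5 passed upward, where 8.54% of all tested genes did. Against Input, 5 of 5 passed upward, where 4.63% of all tested genes did. All 5 passed in both comparisons, as did 4.37% of all tested genes. The 5 genes were chosen with earlier results of these data known, so these shares are no independent test. Of the 10788 tested genes, 3059 averaged 10 CPM or more, as all 5 did. The share that passed among those 3059 was not counted, so the shares above are not matched for level. For all 5, the LARP1 RIP libraries did not overlap those of either control, a higher position that 27.3% of all tested genes had against the IgG RIP and 28.8% against Input. The median log2 fold change of the 5 was 3.94 over the IgG RIP and 2.93 over Input, beside medians of -0.0647 and 0.033 over all 10788 genes.

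Fold changes are on the log2 scale of edgeR's quasi-likelihood fit to the raw counts of all 6 libraries. Levels are CPM, counts scaled to library size, after TMM scaling, which sets libraries against the bulk of their genes. CPM is not divided by transcript length, so levels are compared between libraries and not between genes. A gene passed at a Benjamini-Hochberg adjusted p of 0.05 over all tested genes. Library totals were 4135463 to 8069554 counts. Since 2 unnamed genes took 21.27% to 88.65% of a library, 752862 to 3823470 counts were left for all others, fewest in Input. The files do not pair gene IDs with symbols, so epithelial or other cell type markers and further TOP genes were not assessed.

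**Figure D1:**
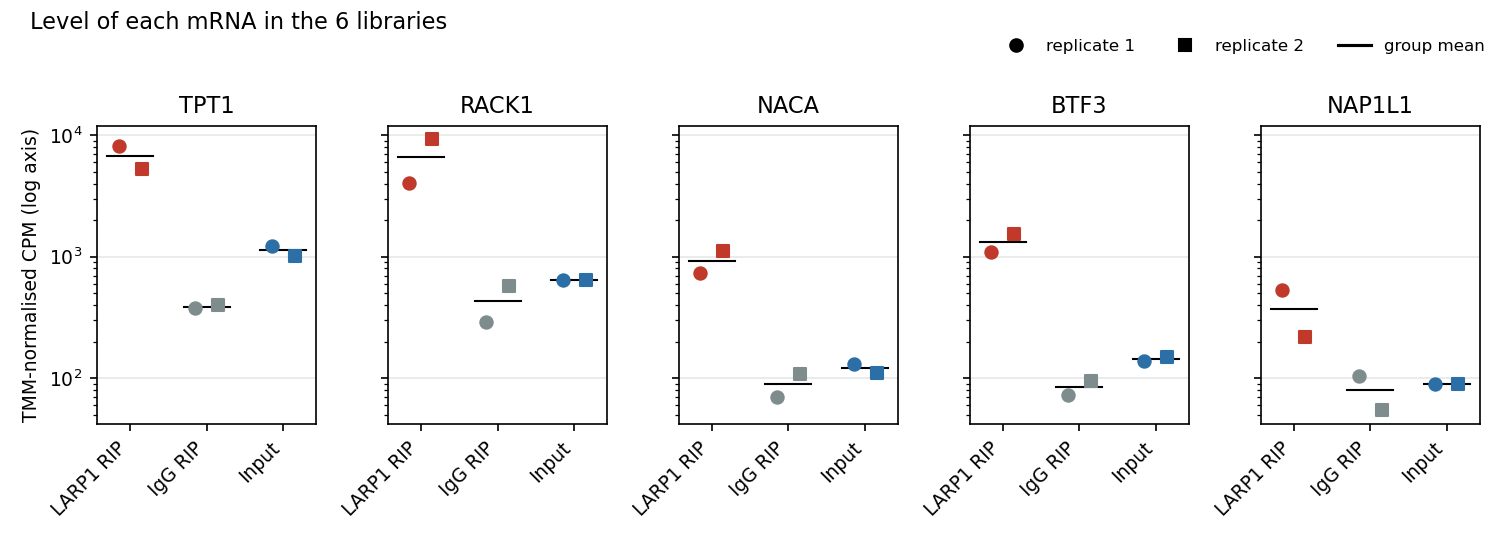
TMM-normalised CPM (log axis) of TPT1, RACK1, NACA, BTF3 and NAP1L1 in the LARP1 RIP, IgG RIP and Input; circles are replicate 1, squares replicate 2 and bars the mean of 2 libraries. For every gene both LARP1 RIP libraries lie above all 4 control libraries, and the IgG RIP lies below Input except for NAP1L1, where they overlap.

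TPT1 encodes the translationally controlled tumour protein (TCTP), an abundant cytosolic protein whose synthesis follows growth signals. TPT1 spans chr13:45333471-45341183. It had 78215 and 28215 counts in the LARP1 RIP, 4127 and 4025 in the IgG RIP, and 3688 and 3288 in Input (replicates 1 and 2). Scaled, TPT1 stood at 8184 and 5237 CPM in the LARP1 RIP, 380 and 398 CPM in the IgG RIP, and 1234 and 1018 CPM in Input. The groups did not overlap, and the lower LARP1 RIP library was 13.1 times the higher IgG RIP library and 4.24 times the higher Input library. The log2 fold change was 4.11 ± 0.45 (SE) over the IgG RIP (edgeR adjusted p = 0.00018) and 2.58 ± 0.42 over Input (edgeR adjusted p = 0.00249). Of all tested genes, 0.825% had a higher log2 fold change over the IgG RIP, and 3.27% over Input. By raw counts TPT1 was the gene ranked 4 and 34 in the LARP1 RIP, 49 and 52 in the IgG RIP, and 24 and 26 in Input.

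RACK1 encodes a WD-repeat scaffold protein that sits on the head of the 40S subunit, near the mRNA exit channel. RACK1 spans chr5:181236897-181243906. It had 38786 and 49739 counts in the LARP1 RIP, 3145 and 5838 in the IgG RIP, and 1915 and 2059 in Input. That is 4058 and 9231 CPM in the LARP1 RIP, 290 and 578 CPM in the IgG RIP, and 641 and 637 CPM in Input. The groups did not overlap, although the LARP1 RIP libraries lay further apart than the Input libraries did. The log2 fold change was 3.94 ± 0.53 (SE) over the IgG RIP (edgeR adjusted p = 0.000469). Against Input it was 3.38 ± 0.52 (edgeR adjusted p = 0.00165). Without LARP1 replicate 2 the RACK1 fold was 9.38 over the IgG RIP and 6.41 over Input. LARP1 replicate 1 then stood alone in its group and took its spread from the other groups, so that fit does not test the calls. Over all alternatives the adjusted p of RACK1 ran from 4.11e-19 to 0.0111 over the IgG RIP and from 1.38e-15 to 0.114 over Input.

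NACA and BTF3 encode the alpha and beta subunits of the nascent polypeptide-associated complex, a dimer that binds new chains at the ribosomal exit tunnel. NACA spans chr12:56712427-56725299 and BTF3 spans chr5:73498442-73505667. NACA had 6954 and 6011 counts in the LARP1 RIP, 765 and 1092 in the IgG RIP, and 393 and 357 in Input. In CPM, NACA stood at 728 and 1116 in the LARP1 RIP, 70.5 and 108 in the IgG RIP, and 131 and 111 in Input. The groups did not overlap, and the lower LARP1 RIP library was 6.73 times the higher IgG RIP library and 5.53 times the higher Input library. The log2 fold change of NACA was 3.37 ± 0.45 (SE) over the IgG RIP (edgeR adjusted p = 0.000387) and 2.93 ± 0.44 over Input (edgeR adjusted p = 0.00135).

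BTF3 had 10426 and 8351 counts in the LARP1 RIP, 788 and 963 in the IgG RIP, and 412 and 486 in Input. In CPM, BTF3 stood at 1091 and 1550 in the LARP1 RIP, 72.6 and 95.3 in the IgG RIP, and 138 and 150 in Input. Again the groups did not overlap, with the lower LARP1 RIP library 11.4 times the higher IgG RIP library and 7.25 times the higher Input library. The log2 fold change of BTF3 was 3.97 ± 0.44 (SE) over the IgG RIP (edgeR adjusted p = 0.00018) and 3.19 ± 0.42 over Input (edgeR adjusted p = 0.000936).

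NAP1L1 encodes a histone chaperone that carries core histones and assembles nucleosomes, a role away from the ribosome. NAP1L1 spans chr12:76036585-76084685. It had 5057 and 1181 counts in the LARP1 RIP, 1125 and 552 in the IgG RIP, and 265 and 287 in Input. In CPM, NAP1L1 stood at 529 and 219 in the LARP1 RIP, 104 and 54.6 in the IgG RIP, and 88.7 and 88.9 in Input. The LARP1 RIP did not overlap either control, but its lower library was only 2.11 times the higher IgG RIP library and 2.47 times the higher Input library. The log2 fold change was 2.24 ± 0.50 (SE) over the IgG RIP (edgeR adjusted p = 0.0112) and 2.08 ± 0.49 over Input (edgeR adjusted p = 0.0242).

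Without LARP1 replicate 1, NAP1L1 did not pass over either control. Its log2 fold change was then 1.47 over the IgG RIP and 1.31 over Input by edgeR, and 1.44 and 1.27 by DESeq2. LARP1 replicate 2 stood alone in its group and took its spread from the other groups, so those fits do not test the calls. These values set LARP1 replicate 2 against the mean of both IgG RIP libraries, of which replicate 1 was the higher. Set against the library of the same number, the CPM of NAP1L1 in the LARP1 RIP was 5.1-fold (replicate 1) and 4.01-fold (replicate 2) that in the IgG RIP, and 5.97-fold and 2.47-fold that in Input. Whether libraries of the same number are paired is not settled, so these folds do not restore the calls. Over all alternatives the adjusted p of NAP1L1 ran from 4.31e-06 to 0.113 over the IgG RIP and from 1.75e-05 to 0.321 over Input.

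**Figure D2:**
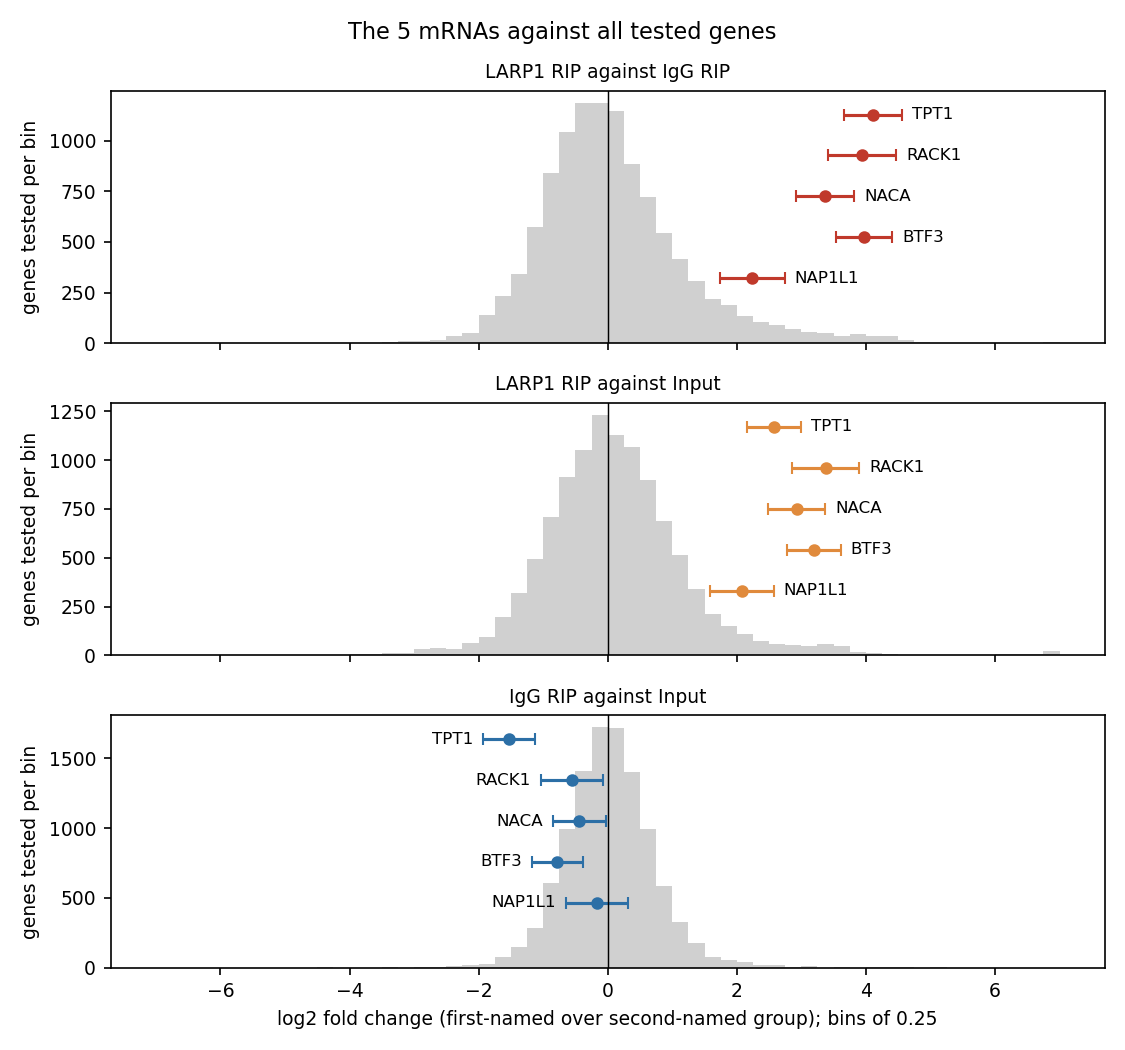
Grey bars count all 10788 tested genes by log2 fold change in bins of 0.25 for the 3 comparisons, with values beyond the axis placed in the end bins; points are the 5 genes with SE from edgeR, and their height has no meaning. Over the IgG RIP the 5 lie between 2.24 and 4.11, over Input between 2.08 and 3.38, and in the IgG RIP over Input between -1.53 and -0.17.

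The edgeR calls over Input were not kept when either Input library was left out, where the remaining Input library took its spread from the other groups. All groups shared an estimate of spread. Replicates differed by 5.7 times sampling noise in Input, 32.5 in the LARP1 RIP and 33.5 in the IgG RIP (chi-square per degree of freedom). That measure rises with the counts of a gene, so it does not rank the groups by spread. Whether sharing the estimate moved the calls was not tested. Without Input replicate 1 or Input replicate 2, 0 of the 5 and no gene of the series passed by edgeR over Input, where 1872 and 1190 genes had an unadjusted p under 0.05. The log2 fold changes of the 5 were then 2.13 to 3.38 without Input replicate 1 and 2.09 to 3.38 without Input replicate 2, close to those above. DESeq2 called 5 of the 5 without Input replicate 1, and 3.6% of all genes in either direction, and again 5 of the 5 without Input replicate 2, and 2.81% of all genes. Over the IgG RIP, 4 or 5 of the 5 passed under every alternative that was run.

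The scaling moved the sizes of the folds. With total counts in place of TMM, the log2 fold changes of the 5 over Input were 3.89 to 5.0, that is 14.8-fold to 32.0-fold, while the median of all genes moved to 1.75. With total counts outside the 2 most abundant genes, it moved to -0.979 over Input and to -1.28 over the IgG RIP. Under that setting the log2 fold changes of the 5 were 1.14 to 2.99 over the IgG RIP and 1.23 to 2.29 over Input, and NAP1L1 did not pass (edgeR adjusted p = 0.113 and 0.14). A change of scaling moves all genes by about the same amount, so their distance from the median of all genes is nearly fixed by construction and says nothing of stability. Relative to that median, and over TMM, DESeq2, upper-quartile and both total-count scalings, TPT1 stayed between 4.17 and 4.27 over the IgG RIP. By the same measure RACK1 stayed between 3.94 and 4.0, BTF3 between 4.01 and 4.04, NACA between 3.40 and 3.43, and NAP1L1 between 2.30 and 2.42. Over Input the same ranges were 3.25 to 3.35 for RACK1, 3.12 to 3.16 for BTF3, 2.85 to 2.90 for NACA, 2.54 to 2.65 for TPT1 and 2.05 to 2.21 for NAP1L1.

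**Figure D3:**
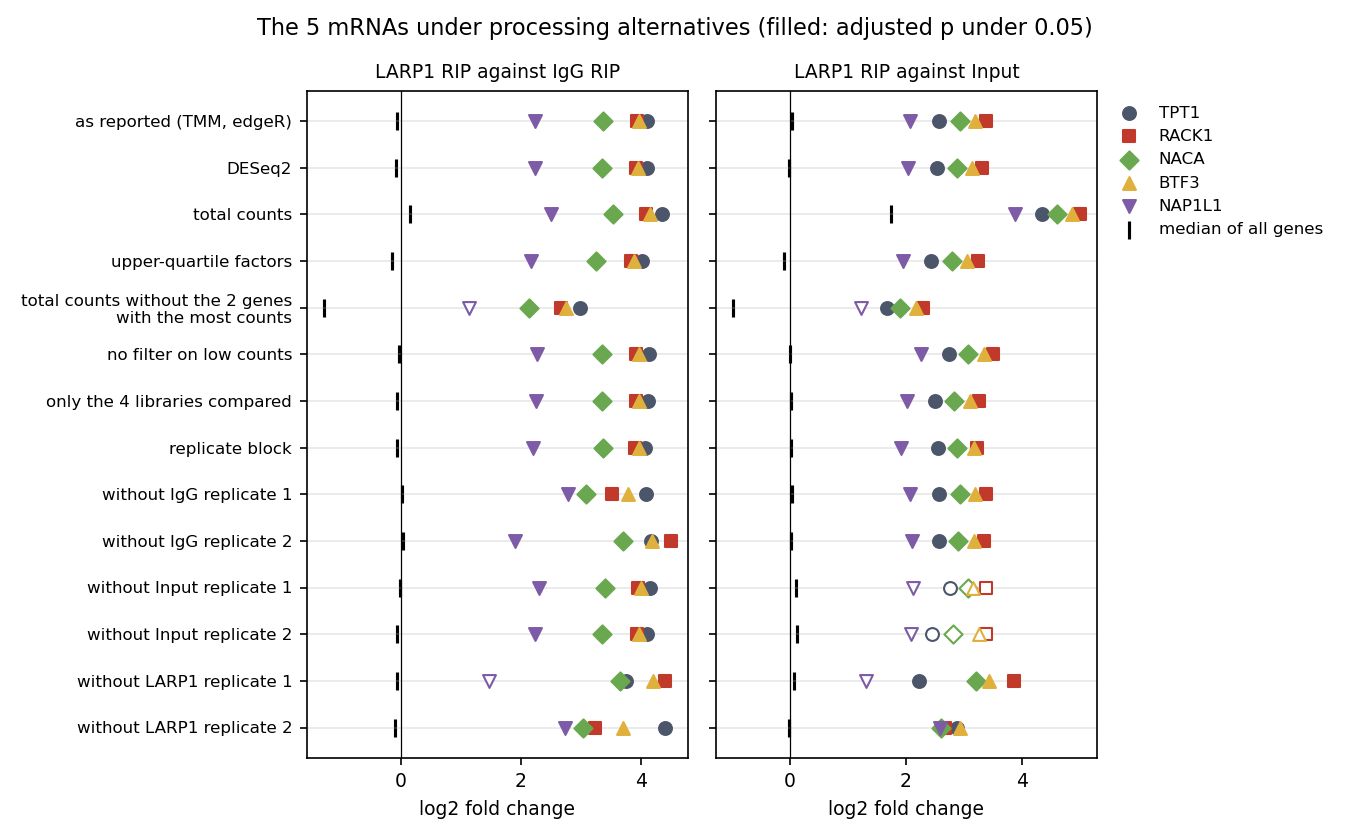
Log2 fold change of the 5 genes (horizontal axis) in the LARP1 RIP over the IgG RIP and over Input under processing alternatives (rows; the DESeq2 fits that leave out a library are not drawn); filled symbols had an adjusted p under 0.05, open ones did not, and black ticks mark the median of all genes. All points lie above the median of all genes; NAP1L1 is open in both panels with total counts without the 2 genes with the most counts and without LARP1 replicate 1, and all 5 are open over Input in the 2 rows that leave out an Input library.

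Together the 5 genes took 2.47% ± 0.293 of the LARP1 RIP counts, 0.145% ± 0.0136 of the IgG RIP counts and 0.101% ± 0.000149 of the Input counts (SD, n = 2 each). Outside the 2 most abundant genes the shares were 3.26% ± 0.548 in the LARP1 RIP, 0.503% ± 0.0553 in the IgG RIP and 0.859% ± 0.0386 in Input (SD, n = 2 each). The LARP1 RIP share was above either control by both denominators, whereas the order of the IgG RIP and Input turned with the denominator. With 2 libraries a group, the exact two-sided permutation test has a smallest p of 0.333, and it gave this p for each of these comparisons.

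Between the IgG RIP and Input, TPT1 had the largest difference of the 5. Its log2 fold change was -1.53 ± 0.40 (SE), at 389 ± 12.7 CPM in the IgG RIP and 1130 ± 153 CPM in Input (SD, n = 2 each), and 98.7% of tested genes had a higher value. The unadjusted p was 0.00212 and the edgeR adjusted p was 0.603. DESeq2, which called 0.352% of all genes here, gave -1.57 with an adjusted p of 0.0134, and the adjusted p ran from 0.00284 to 1.0 over all alternatives. In this comparison 0 of the 5 passed by edgeR, with 1 at an unadjusted p under 0.05, where 0% of all tested genes passed and 6.72% had an unadjusted p under 0.05.

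The other genes had log2 fold changes in the IgG RIP over Input of -0.78 ± 0.39 for BTF3, -0.56 ± 0.48 for RACK1, -0.44 ± 0.41 for NACA and -0.17 ± 0.48 for NAP1L1 (SE; edgeR adjusted p = 0.759, 0.867, 0.885 and 0.97). With total counts these values were 0.72, 0.92, 1.06 and 1.39, and that of TPT1 was -0.01, while the median of all genes moved to 1.51. All 5 were below the median of all genes under each of the scalings. With total counts outside the 2 most abundant genes NAP1L1 turned to 0.09, below a median of 0.202. Leaving out IgG replicate 2 turned NAP1L1 to 0.2 and moved the fold of RACK1 to 0.448, against 0.678 with all libraries (edgeR adjusted p = 0.984 and 0.575). The IgG RIP libraries did not overlap Input for TPT1, RACK1, NACA and BTF3, a lower position that 19.3% of all tested genes shared.

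TPT1 had the highest fold of the 5 over the IgG RIP and the next to lowest over Input. The place over the IgG RIP rested on LARP1 replicate 1, and the place over Input on LARP1 replicate 2. Without LARP1 replicate 2, the log2 fold change of TPT1 over Input was 2.88, next to the highest (BTF3, 2.94). In LARP1 RIP replicate 1, CPM over the IgG RIP mean was 21.0-fold for TPT1, 13.0-fold for BTF3 and 9.36-fold for RACK1. In LARP1 RIP replicate 2 it was 21.3-fold for RACK1, 18.5-fold for BTF3 and 13.5-fold for TPT1. Without IgG replicate 2, RACK1 also had a higher log2 fold change over the IgG RIP (4.5) than TPT1 (4.17). A ratio of the counts of 2 genes in the same library is independent of scaling, and it was used to compare the members with each other. All 10 pairs were compared between the LARP1 RIP and each control by an exact two-sided permutation test, where no p can be below 0.333. The smallest p adjusted over the 10 pairs was 0.833, so these ratios are descriptions. The LARP1 RIP libraries did not overlap the control in 4 of the 10 pairs against the IgG RIP and in 4 of the 10 against Input.

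The ratio of NACA to BTF3, the subunit pair, was 0.667 and 0.72 in the LARP1 RIP, 0.971 and 1.13 in the IgG RIP, and 0.954 and 0.735 in Input. It was lowest in the LARP1 RIP, by a factor of 0.66 against the IgG RIP and 0.828 against Input (exact p = 0.333 each). On the log2 scale the SD between replicates was 0.08 in the LARP1 RIP, 0.16 in the IgG RIP and 0.27 in Input. The log2 difference from Input, -0.27, was thus no larger than the spread of the Input libraries, and Input replicate 2 lay close to LARP1 RIP replicate 2.

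The ratio of TPT1 to NAP1L1 was 15.5 and 23.9 in the LARP1 RIP, 3.67 and 7.29 in the IgG RIP, and 13.9 and 11.5 in Input. It was highest in the LARP1 RIP, by a factor of 3.72 against the IgG RIP and 1.52 against Input (exact p = 0.333 each). The ratio of BTF3 to NAP1L1 was 2.06 and 7.07 in the LARP1 RIP, 0.70 and 1.74 in the IgG RIP, and 1.55 and 1.69 in Input. Both ratios were higher in each LARP1 RIP library than in any control library, and that of BTF3 differed widely between the LARP1 RIP libraries. They share NAP1L1 as the denominator, so they are not separate observations.

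The ratio of TPT1 to RACK1 was 2.02 and 0.567 in the LARP1 RIP, 1.31 and 0.689 in the IgG RIP, and 1.93 and 1.60 in Input. Replicate 1 was therefore richer in TPT1 and replicate 2 richer in RACK1 in both immunoprecipitates, with a smaller gap in Input. The mean log2 ratio was 0.1 in the LARP1 RIP, -0.07 in the IgG RIP and 0.81 in Input, with SDs of 1.29, 0.66 and 0.19 (n = 2 each), and the LARP1 RIP libraries lay on either side of both controls. The ratio of RACK1 to NAP1L1 was 7.67 and 42.1 in the LARP1 RIP, 2.80 and 10.6 in the IgG RIP, and 7.23 and 7.17 in Input. It was higher in replicate 2 of both immunoprecipitates and alike in the Input libraries.

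**Figure D4:**
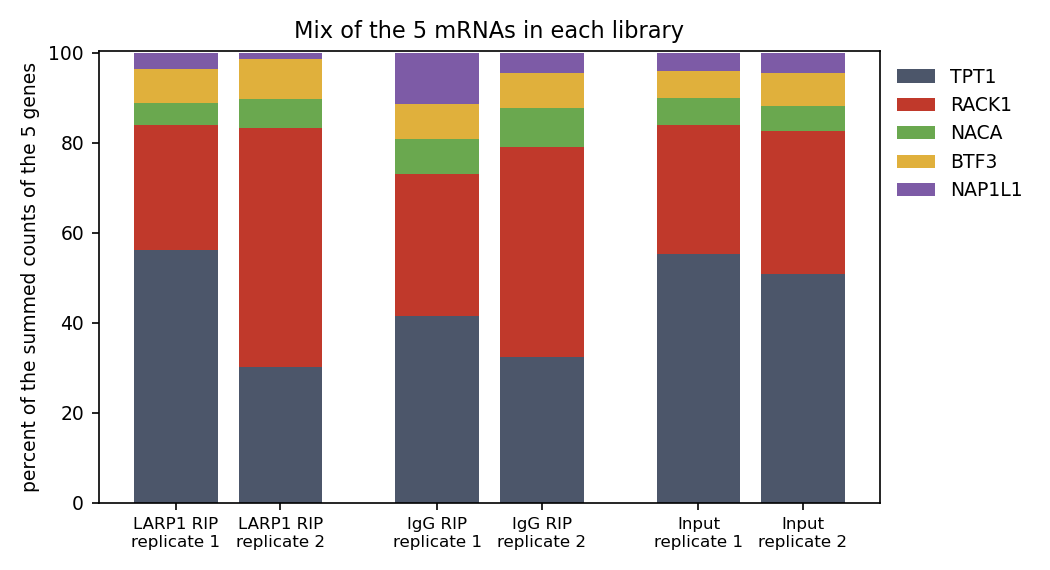
Stacked bars give the percent of the summed counts of TPT1, RACK1, NACA, BTF3 and NAP1L1 that each gene took in each of the 6 libraries; counts are not divided by transcript length. TPT1 took 56.1% and 30.2% in LARP1 RIP replicates 1 and 2 and RACK1 27.8% and 53.2%, whereas TPT1 took 55.3% and 50.8% and RACK1 28.7% and 31.8% in the Input libraries.

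The mix of the 5 mRNAs in LARP1 RIP replicate 1 was close to that of Input, as the stacked plot of count shares shows. In that library the CPM over the Input mean was 7.57-fold for BTF3, 7.27-fold for TPT1, 6.35-fold for RACK1, 6.01-fold for NACA and 5.96-fold for NAP1L1. In LARP1 RIP replicate 2 it was 14.4-fold for RACK1, 10.8-fold for BTF3, 9.22-fold for NACA, 4.65-fold for TPT1 and 2.47-fold for NAP1L1. On the log2 scale, the highest and lowest of the 5 differed by 0.346 without LARP1 replicate 2 and by 2.55 without LARP1 replicate 1. The spread among the 5 over Input therefore rested on LARP1 replicate 2, and the cause of the difference between the LARP1 RIP libraries was not tested.

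Over the 6 libraries, log2 CPM of NACA, RACK1 and BTF3 varied most alike. Pearson's r was 0.995 for NACA with RACK1, 0.994 for NACA with BTF3 and 0.988 for RACK1 with BTF3. TPT1 had r of 0.917 with RACK1, 0.938 with NACA and 0.959 with BTF3. NAP1L1 had r of 0.769 with RACK1, 0.823 with NACA, 0.852 with BTF3 and 0.90 with TPT1. These correlations describe 6 libraries that fall into 3 groups and share their scaling, and carry no test.

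Many genes resembled NACA, RACK1 or BTF3 more closely than these resembled each other. Ranked by r with NACA, among the 3058 other genes that averaged 10 CPM or more, RACK1 was at place 56 and BTF3 at place 66. The closest were ENSG00000198755.10 (r = 0.9996) and ENSG00000198242.13 (r = 0.9994), which have no symbol in the files. Their log2 fold changes were 3.94 and 3.88 over the IgG RIP and 3.49 and 3.37 over Input (adjusted p by edgeR of 0.000197 and 0.000185 against the IgG RIP, and 0.000936 for each against Input). For NAP1L1 the closest gene had r = 0.9877, the lowest of the closest matches of the 5. That gene had a log2 fold change of 0.67 against the IgG RIP (edgeR adjusted p = 0.298) and 0.7 against Input (0.32). It passed in neither comparison. The next closest passed against the IgG RIP (1.46, adjusted p = 0.0325) but not Input (1.1, 0.129). The gene most like TPT1 passed against the IgG RIP (2.21, 0.00313) but not Input (1.4, 0.0543). Those most like RACK1 and BTF3 passed against both.

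Several features of these genes bear on how their reads could be counted. RefSeq names 14 pseudogenes of TPT1, 3 of RACK1, 9 of NACA, 16 of BTF3 and 3 of NAP1L1. The rule the authors used for reads that map to several places is not given in the sources used here, so counts of these genes may be lower or higher than their transcripts. The pseudogene DENRP2 lies within the NAP1L1 span. Within the TPT1 span lie the small nucleolar RNA genes SNORA31 and SNORA31B, and within RACK1 lie SNORD95 and SNORD96A. Poly(A) selection was left out of library preparation, and the part of such small RNAs in the counts of their host genes was not tested. The lowest count of any of the 5 genes was 265, for NAP1L1 in Input replicate 1, with an exact 95% Poisson interval of 234 to 299 that covers counting error only.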

How the data were processed

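The deposited values are the authors' raw read counts per Ensembl gene ID, 1 table per library, without normalization. Per the submitters' processing notes, reads were processed with TopHat2 2.1.1, Bowtie2, CASAVA 1.8, Subread 1.20.6 and featureCounts on GRCh38. For annotation release, strand setting and multi-mapped reads, the settings are not given in the sources used. Per the labels' protocols, RNA was TRIzol-purified and a stranded kit was used without poly(A) selection.

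Groups come from the sample titles. Counts were fitted with edgeR 4.0.16 in R 4.3.3 (filterByExpr with a minimum count of 10, TMM, quasi-likelihood test), with all 6 libraries in a single fit with 3 residual degrees of freedom, since 2 libraries per group estimate spread poorly. The SE is the log2 fold change over the square root of F. The code was tested on simulated data. Replicates differed by 5.7 to 33.5 times sampling noise (chi-square per degree of freedom), so none was a duplicate. DESeq2 1.42.0, other scalings and filters, a replicate block and leaving out each library were alternatives. By edgeR and by DESeq2, a library left alone in its group takes its spread from the other groups. Ratios were tested by exact permutation (SciPy 1.17.1). P-values reflect only how far these libraries spread, which may be technical.

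The 5 genes and all lists were chosen with earlier results of these data known. The genes matched RefSeq by symbol (5 of 5). No ID matched its empty Ensembl column, so the planned lists of other genes and markers were not applied, and only 2 of the genes most alike, those with the highest r, are printed by ID. Start sequences are RefSeq's (GRCh38.p14, 250 bases before to 50 after the start).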

Additional observations from a re-analysis of the deposited data

How the results depend on the processing

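Over the IgG RIP, 4 or 5 of the 5 genes passed under all 19 alternatives, and no direction changed. NAP1L1 was lost with total counts outside the 2 most abundant genes (log2 fold change 1.14). It also did not pass without LARP1 replicate 1 by edgeR and by DESeq2, fits that do not test the calls because LARP1 replicate 2 stood alone. Leaving out each library in turn gave 4 to 5 of the 5 over the IgG RIP, 0 to 5 over Input and 0 to 0 between the IgG RIP and Input by edgeR, and 4 to 5, 4 to 5 and 0 to 1 by DESeq2, a setting chosen after seeing the data, where a library left alone in its group takes its spread from the other groups. In the IgG RIP over Input, all alternatives kept 0 of 5 calls except DESeq2 (1, TPT1), DESeq2 without either LARP1 replicate (1, TPT1) and total counts (4, where RACK1, NACA, BTF3 and NAP1L1 turned to 0.92, 1.06, 0.72 and 1.39, below the shifted median of 1.51). Over all tested genes, higher calls ran from 333 to 1526 against the IgG RIP (921 as reported), from 0 to 6550 against Input (499), and from 0 to 5808 for the IgG RIP over Input (0). Lower calls ran from 59 to 4185 (247), 0 to 1270 (164) and 0 to 35 (0).

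With a replicate block in the fit, 5, 5 and 0 of the 5 passed in the 3 comparisons, and 1526, 1083 and 39 genes of the series were higher. The adjusted p of NAP1L1 was then 9.11e-05 over the IgG RIP and 0.000855 over Input. Libraries with the same number deviated from their group means with a correlation of 0.519 (LARP1 RIP and IgG RIP), 0.134 (LARP1 RIP and Input) and 0.271 (IgG RIP and Input), and the names of the deposited replicate 2 files share a tag that those of replicate 1 lack. The sources used here do not say what the tag or the numbers mark, so whether they pair the libraries is not settled. The gap between the highest and lowest of the 5 log2 fold changes, from raw counts, was 1.89 over the IgG RIP (1.40 to 2.95 leaving out each library) and 1.32 over Input (0.346 to 2.55). Within replicate 1 and replicate 2 it was 2.08 and 2.02 over the IgG RIP, and 0.516 and 2.55 over Input. Shares of counts were 3.26%, 0.503% and 0.859% in the LARP1 RIP, IgG RIP and Input outside the 2 most abundant genes, and 2.26% to 2.68%, 0.135% to 0.155% and 0.101% to 0.101% leaving out each library. With at least 7 pyrimidines, 3 of the 5 starts held the motif with the C within 10 bases, and 1 of the 5 at the start itself. Counting error is largest in Input, which had the fewest counts left after the 2 most abundant genes. Replicates differed by 5.7 times sampling noise in Input, 32.5 in the LARP1 RIP and 33.5 in the IgG RIP. At the same relative spread this measure rises with the counts of a gene, so it does not rank the groups by spread. Apart from the settings' own construction (fewer samples, another scaling), the cause of these changes was not tested.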
